A study of Mus musculus with 12 samples.

Results

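Antigen-presenting cells carry surface proteins that decide whether a T cell meeting its antigen is driven on or held back, and 10 mouse genes for such proteins were followed here. They are Cd40, Cd80, Cd86, Cd83, Cd274, Pdcd1lg2, Icosl, Tnfsf9, Icam1 and Slamf1, taken by symbol from the 23997 genes in each library, and all 10 were present. RNA-seq was performed on bone marrow-derived macrophages (BMDMs), macrophages grown from marrow of male C57BL/6 mice aged 8 to 10 weeks with recombinant human M-CSF at 10 ng/ml for 7 days. WT and Pim1-/- cells were either left untreated or given LPS (100 ng/ml, 4 h), which makes 4 groups with 3 libraries each. Pim1 encodes a serine/threonine kinase. The Pim1-/- mice, made by CRISPR/Cas9 editing, carry a deletion of its exons I to V that is not restricted to macrophages. LPS is a bacterial glycolipid that activates macrophages through a Toll-like receptor. The sources do not say whether the libraries of a group came from separate mice or separate cultures, so the p-values measure the spread between these libraries, which may be technical.

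The proteins fall into families that work at the contact between an antigen-presenting cell and a lymphocyte. CD80 and CD86 bind CD28, which costimulates T cells, and CTLA-4, which restrains them. ICOSL binds ICOS, and the ligands encoded by Cd274 (PD-L1) and Pdcd1lg2 (PD-L2) bind the inhibitory receptor PD-1. CD40 is a receptor of the TNF receptor family that takes signals from T cells, and the Tnfsf9 product is a ligand of the TNF family for the costimulatory receptor encoded by Tnfrsf9. ICAM-1 binds beta2 integrins and holds the cells together, SLAMF1 binds to itself on the neighbouring cell, and CD83 keeps CD86 and MHC class II at the cell surface. Toll-like receptor signals raise many of these genes in macrophages through NF-κB and interferon pathways. The libraries measured RNA and not the proteins.

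The deposited values were taken to be FPKM, that is, fragment numbers divided by transcript length and by a factor for the library, which allows levels of different genes to be compared. Replicates of a group had Pearson's r of 0.9977 to 0.9989 across genes on log2(FPKM + 1). Pim1 itself was at 38.1% of its WT level in untreated Pim1-/- cells and at 33.9% after LPS, and a value per gene does not show which exons this signal came from. All 8 macrophage markers were detected, and 3 of them (Csf1r, Mertk and Fcgr1) were called lower in Pim1-/- cells at both times. The summed level of the 8 was 27805 to 29857 FPKM in untreated WT libraries against 14350 to 15269 in untreated Pim1-/- libraries, and 30706 to 31194 against 15862 to 17732 after LPS. Most of that sum was Lyz2, with means of 26302 and 13297 FPKM without treatment, whereas Cd14 was at 167.5 and 160.3 FPKM and Cd68 at 1161 and 956 FPKM. Cd34, a progenitor marker, was higher in Pim1-/- cells, with a mean of 11.46 against 0.8444 FPKM in untreated cells and 5.53 against 0.5639 after LPS. The neutrophil and progenitor markers together summed to 2.71 to 2.86 FPKM in WT and 13.4 to 14.2 in Pim1-/- libraries without treatment, and to 1.75 to 1.94 and 6.34 to 6.68 after LPS, and nearly all of that gap was Cd34. Kit, the other marker of the list that was tested, had means of 1.739 and 2.305 FPKM without treatment and 0.6683 and 0.5727 FPKM after LPS. None of 9 dendritic cell markers reached the level needed for a test, and their sum stayed between 0.822 and 2.9 FPKM in all libraries. Of the B cell markers only Cd79b was tested (1.471 FPKM in untreated WT cells, the highest of the group means), with Pax5 and Blk at 0 in every library, and 4 of 6 T and NK cell markers were at 0 throughout. Sums of the stromal markers were 0.332 to 1.15 FPKM without treatment, and after LPS they were 8.25 to 9.12 in WT and 2.56 to 3.08 in Pim1-/- libraries, mostly from Pdgfrb. The part of these markers in the results below was not tested, and in bulk RNA fewer cells of a type and less RNA per cell cannot be told apart.

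In untreated cells the 10 genes were modest to absent, and LPS changed both their levels and their order. Without treatment Cd83 stood first, at a mean of 71.74 FPKM in WT, against 38.03 FPKM in Pim1-/- cells, followed by Icam1 at 31.41 and 13.15 FPKM. Pdcd1lg2 and Slamf1 stood last, both under 0.1 FPKM in every untreated library, and their values overlapped. After LPS the order was the same in both genotypes, namely Icam1, Cd40, Cd83, Cd274, Tnfsf9, Icosl, Cd86, Cd80, Slamf1 and Pdcd1lg2, and no neighbours in that order overlapped. In untreated Pim1-/- cells the values of Tnfsf9 and Cd274 overlapped, as did those of Icosl and Cd86.

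**Figure D1:**
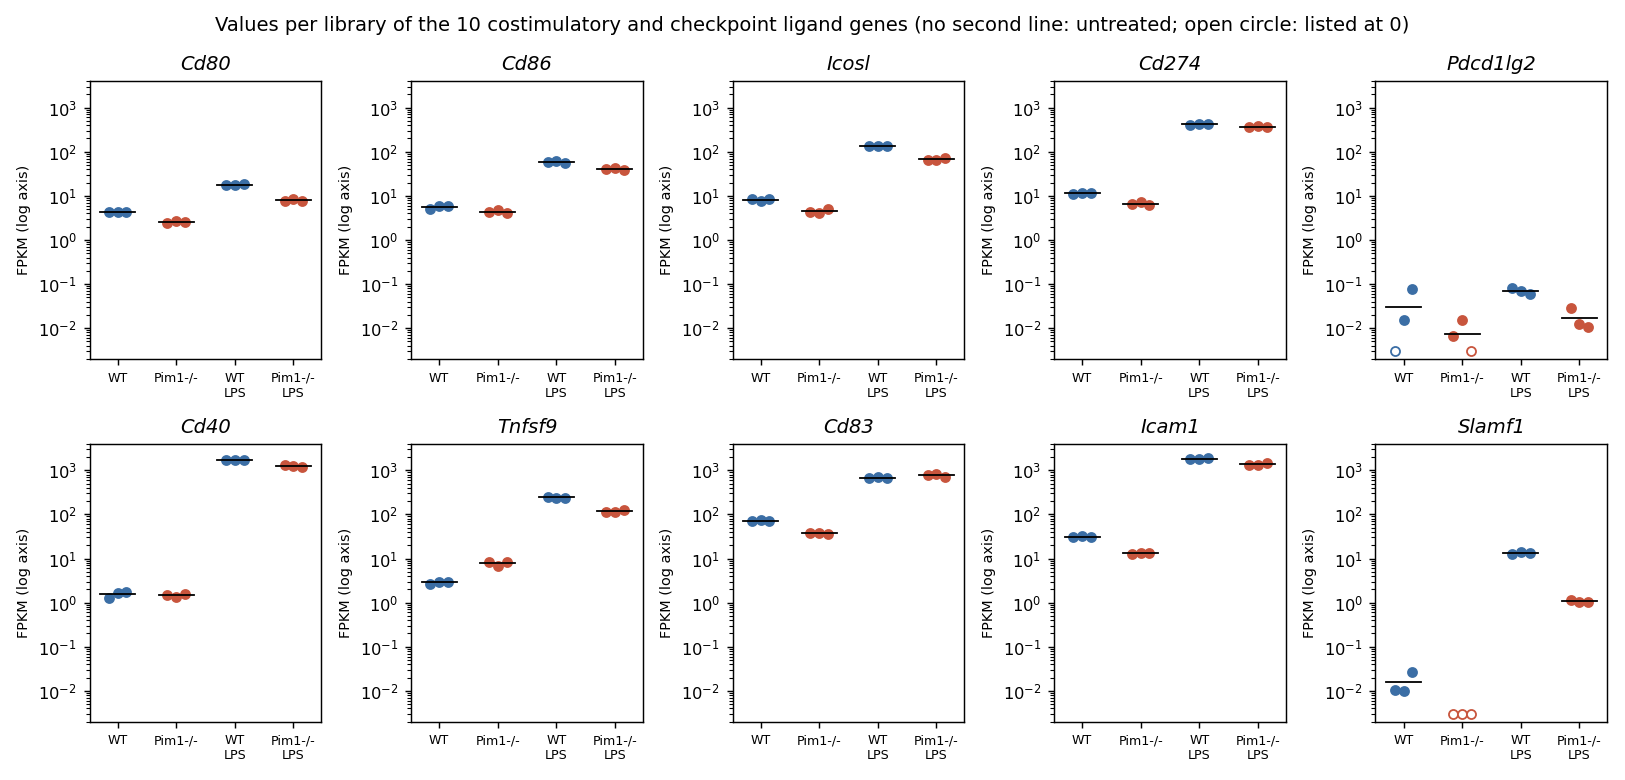
FPKM of the 10 genes in each of the 12 libraries on a log axis, in blue for WT and red for Pim1-/- cells, with the group mean as a line and an open circle near the bottom for a value listed at 0. After LPS the Pim1-/- libraries lie below the WT libraries for 9 genes as deposited (for Cd274 the order of the means turns when libraries are scaled to equal FPKM sums or quantile normalized), and Cd83 lies above. Of the 9, Pdcd1lg2 rests on an estimated 0 to 3 fragments per library after LPS, too few for a comparison. Among all tested genes, 77.5% showed no overlap of the genotypes after LPS.

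LPS raised all 9 genes that had enough signal for a test, in both genotypes. A gene was tested when it had at least 1 FPKM in at least 3 libraries, which 10581 genes and 9 of the 10 did. It was called when limma gave a change of more than 2-fold on log2(FPKM + 1), with p under 0.05 and with an FDR (Benjamini-Hochberg, over all genes tested) under 0.1. All 9 were called higher after LPS in WT cells, where 20.1% of all tested genes were, and all 9 in Pim1-/- cells, where 14.6% were. Their median log2 change was 3.89 in WT and 3.76 in Pim1-/- cells, against medians of 0 and −0.01 over all genes. Cd40 rose most, ranking 14 of 10581 genes in WT and 18 in Pim1-/- cells, whereas Cd80 rose least among the 9 in WT cells and ranked 1087 there. Under scaling to equal FPKM sums, which moved the median LPS change of all genes to −0.67 in WT and −0.58 in Pim1-/- cells, the 9 genes still rose in both genotypes, but Cd80 (0.81) and Slamf1 (0.91) were no longer called in Pim1-/- cells.

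**Figure D2:**
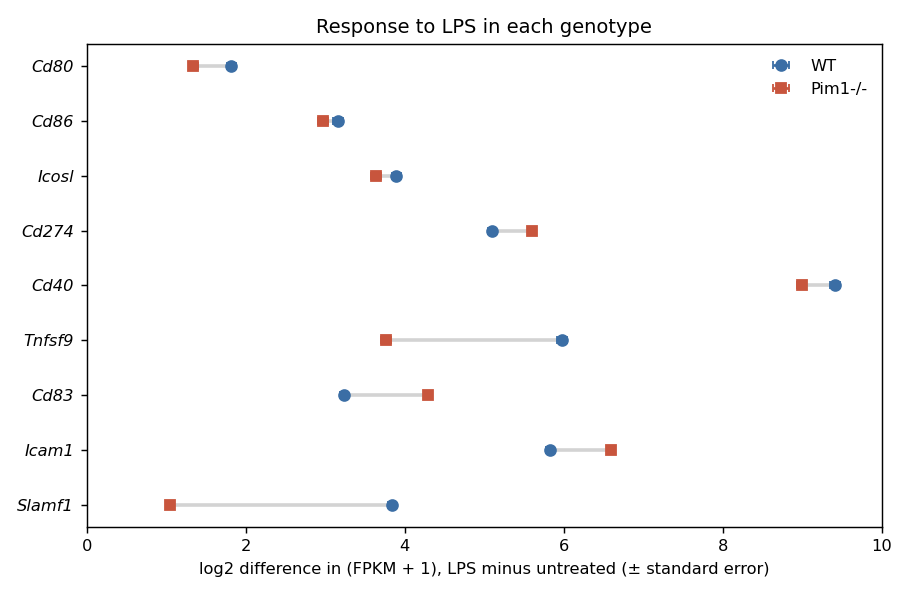
Change with LPS of the 9 tested genes on log2(FPKM + 1), with circles for WT and squares for Pim1-/- cells and bars for the standard error, most of which are smaller than the symbols. The widest gaps between genotypes are those of Slamf1 (3.83 and 1.04) and Tnfsf9 (5.97 and 3.76), while Cd83 is further right in Pim1-/- cells (3.24 and 4.30).

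Between genotypes, more of the tested genes were lower than higher in Pim1-/- cells. In untreated cells Icam1 was called lower (1 of 9, where 3.37% of all tested genes were) and Tnfsf9 was called higher (1 of 9, where 4.4% were). Without the fold threshold, at an FDR under 0.1, 6 of 9 were lower and 1 was higher, against 44.2% and 34.6% of all genes. For 8 of 9 the genotypes shared no range of values, against 78.4% of all genes, so that separation by itself was common. The 8 include Slamf1, which was under 0.1 FPKM in every untreated library. Its untreated difference did not pass the test (−0.02, adjusted p = 0.702, limma). After LPS 4 of 9 were called lower, namely Slamf1, Cd80, Tnfsf9 and Icosl, where 5.15% of all tested genes were, and none was called higher, where 3.51% were. At an FDR under 0.1 with limma 8 were lower and 1, Cd83, was higher, against 43.4% and 37.6% of all genes, and the genotypes were separated without overlap for each of the 9, as they were for 77.5% of all genes. The median difference of the 9 was −0.59 in untreated cells and −0.51 after LPS on the log2 scale, with medians of −0.05 and −0.03 over all genes. Only Slamf1 was still called after LPS when libraries were scaled to equal FPKM sums or quantile normalized, because Cd80, Icosl and Tnfsf9 then fell short of 2-fold.

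**Figure D3:**
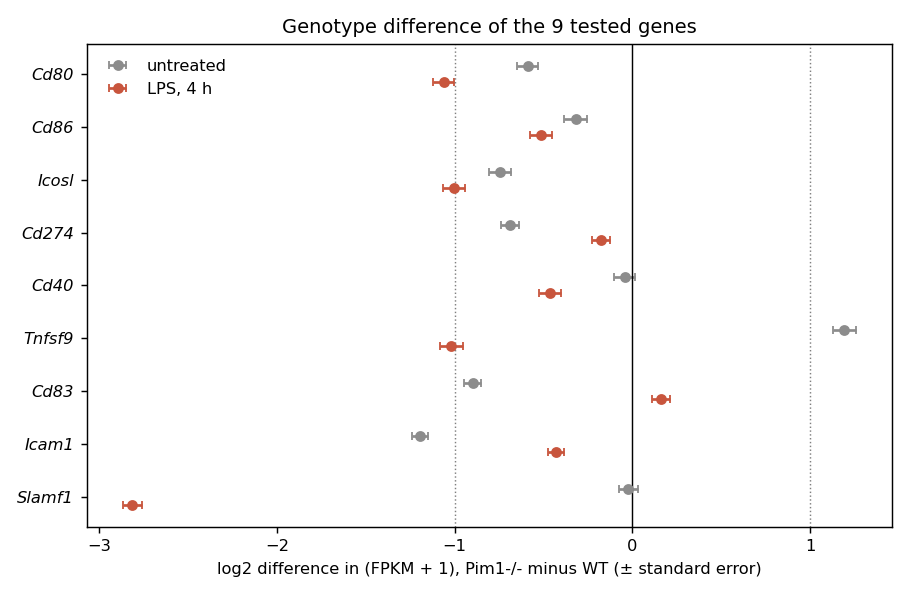
Difference between Pim1-/- and WT cells on log2(FPKM + 1) for the 9 tested genes, in grey for untreated cells and in red after LPS, with bars for the standard error and dotted lines at a 2-fold difference. Tnfsf9 lies at 1.19 without treatment and −1.02 after LPS, Cd83 at −0.90 and 0.16, and Slamf1 at −0.02 and −2.81; the small difference of Cd274 after LPS (−0.18) turns positive under scaling to equal FPKM sums and quantile normalization.

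Cd80 encodes the B7 ligand CD80 and lies on chromosome 16 (chr16:38455561-38496335, + strand, mm10). It was at 4.22, 4.41 and 4.36 FPKM in untreated WT libraries and at 2.38, 2.65 and 2.60 FPKM in untreated Pim1-/- libraries. After LPS it was at 17.28, 17.16 and 18.86 FPKM in WT, against 7.78, 8.68 and 7.53 FPKM in Pim1-/- libraries. The genotypes did not overlap at either time. The Pim1-/- mean was 58.8% of WT without treatment and 45% of WT after LPS, where the log2 difference was −1.06 with a standard error of 0.058 and an adjusted p of 2.05e-10 (limma). LPS raised it 4.11-fold in WT and 3.14-fold in Pim1-/- cells as ratios of the means, and the response was smaller by 0.47 on the log2 scale in Pim1-/- cells (adjusted p = 0.00014). The call after LPS was lost under scaling to equal FPKM sums (−0.85) and quantile normalization (−0.88).

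Cd86, on the − strand of the same chromosome (chr16:36603869-36666081), encodes the other ligand of CD28 and CTLA-4. Untreated WT libraries held 5.16, 5.85 and 5.97 FPKM, and untreated Pim1-/- libraries 4.28, 4.66 and 4.06 FPKM. LPS brought WT libraries to 58.22, 61.04 and 56.47 FPKM and Pim1-/- libraries to 40.63, 43.65 and 37.94 FPKM. Every Pim1-/- value was below every WT value of the same treatment. Differences of −0.32 (adjusted p = 0.000284) and −0.51 (adjusted p = 2.22e-06) by limma were both under 2-fold, so Cd86 was not called. Its level after LPS was 69.5% of WT, and the rise with LPS was similar in size, 10.4-fold in WT and 9.41-fold in Pim1-/- cells. The test of the difference in response gave −0.19 (adjusted p = 0.0699, limma), with the sign reversed under quantile normalization (0.08).

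Icosl encodes the ligand of ICOS (chr10:78069302-78083913, + strand). Without treatment it was at 8.27, 7.67 and 8.58 FPKM in WT, against 4.36, 4.11 and 4.97 FPKM in Pim1-/- libraries. After LPS the values were 135.6, 134.1 and 136.2 FPKM in WT, against 65.95, 63.29 and 72.02 FPKM in Pim1-/- libraries. The genotypes were apart at both times, with Pim1-/- means at 54.8% and 49.6% of WT. The rise with LPS was 16.6-fold and 15-fold, so that the lower level after LPS accompanied a lower level before it. The log2 difference after LPS was −1.0 with a standard error of 0.061 and an adjusted p of 6.78e-10 (limma), which lay at the 2-fold threshold. It was not called without WT replicate 3 (−1.0), Pim1-/- replicate 1 (−0.99) or Pim1-/- replicate 2 (−0.96), nor under scaling to equal FPKM sums (−0.80) or quantile normalization (−0.69). The response to LPS differed by −0.26 (adjusted p = 0.0166, limma), which was 0.12 under quantile normalization.

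Cd274 encodes PD-L1, a ligand of the inhibitory receptor PD-1 (chr19:29367455-29388095, + strand). It was at 10.92, 11.4 and 11.58 FPKM in untreated WT libraries and at 6.39, 7.26 and 6.28 FPKM in untreated Pim1-/- libraries. After LPS it reached 411.3, 428.2 and 417.9 FPKM in WT, against 363.7, 387.6 and 359.5 FPKM in Pim1-/- libraries. All Pim1-/- values were the lower ones, but the gap was wide before LPS (58.8% of WT) and narrow after it (88.3% of WT). In limma the untreated difference was −0.69 (adjusted p = 7.23e-09). That after LPS was −0.18 (adjusted p = 0.00436), and its sign changed under scaling to equal FPKM sums (0.03) and quantile normalization (0.13). The rise was 37.1-fold in WT and 55.7-fold in Pim1-/- cells, a difference in response of 0.51 on the log2 scale (adjusted p = 1.64e-05, limma). Its exons overlap those of an annotated gene on the opposite strand, and whether the counting used strand is not given in the sources used here.

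Promoter sequence was available for 6 of the 10 genes and was searched for 3 motifs of the pathways that LPS activates. These were an IRF motif (GAAANNGAA), the STAT motif called GAS (TTCNNNGAA) and the NF-κB consensus, on both strands. Of 32817 mouse promoters of the same 250 bases, 7.12% held the IRF motif, 7.01% the GAS motif and 3.9% the NF-κB consensus. Cd274 held an IRF motif on the − strand, at −76 to −68 from the RefSeq start, Icam1 held a GAS motif at −42 to −34, and Pdcd1lg2 held the NF-κB consensus at −244 to −235. The windows of Cd80, Icosl and Slamf1 held none of the 3. For these, and for the motifs not found in the other windows, this says only that these letters were not in 250 bases. Sites that differ from the pattern by a letter, for NF-κB in Icam1 as elsewhere, would be missed. For Cd80 the window (chr16:38458683-38458932) lies inside the gene interval given above, so it is upstream of the RefSeq start but not of that interval. The promoters of Cd274 and Icam1, which LPS raised strongly in both genotypes, and of Slamf1, whose rise differed most between them, are given below from RefSeq (GRCm38.p6, the mm10 build, + strand). Capitals mark the motif matches, which are letter matches and not measured binding sites.
Cd274 (chr19:29367188-29367437): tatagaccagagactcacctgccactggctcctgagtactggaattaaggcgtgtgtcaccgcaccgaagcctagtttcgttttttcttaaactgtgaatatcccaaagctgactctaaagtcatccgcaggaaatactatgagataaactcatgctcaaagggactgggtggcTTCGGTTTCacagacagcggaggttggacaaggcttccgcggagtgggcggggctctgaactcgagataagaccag
Icam1 (chr9:21015690-21015939): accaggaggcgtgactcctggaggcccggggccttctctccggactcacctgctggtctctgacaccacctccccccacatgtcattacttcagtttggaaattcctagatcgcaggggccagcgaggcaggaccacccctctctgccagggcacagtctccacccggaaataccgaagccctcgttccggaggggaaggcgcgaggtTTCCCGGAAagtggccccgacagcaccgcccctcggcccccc
Slamf1 (chr1:171766882-171767131): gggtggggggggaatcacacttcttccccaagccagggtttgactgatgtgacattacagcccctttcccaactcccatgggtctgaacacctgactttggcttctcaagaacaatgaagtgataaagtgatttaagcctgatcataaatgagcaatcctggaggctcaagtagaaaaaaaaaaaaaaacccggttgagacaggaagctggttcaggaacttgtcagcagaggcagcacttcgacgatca

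Pdcd1lg2, the neighbour of Cd274 (chr19:29410919-29471161, + strand) and the gene for the second ligand of PD-1, was hardly detected. It was listed at 0, 0.0154 and 0.0777 FPKM in untreated WT and at 0.00676, 0.0155 and 0 FPKM in untreated Pim1-/- libraries. After LPS the values were 0.0798, 0.0694 and 0.0593 FPKM in WT, against 0.029, 0.0123 and 0.0109 FPKM in Pim1-/- libraries. These values amount to an estimated 0 to 5 fragments per library, which is too few for a fold change, and the gene was not tested. So of the ligands of PD-1, Cd274 carried nearly all the RNA in every group.

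Cd40 encodes the receptor for CD40 ligand (chr2:165055627-165072948, + strand) and had the steepest rise of the 9. Untreated libraries held 1.28, 1.65 and 1.71 FPKM in WT, against 1.52, 1.32 and 1.56 FPKM in Pim1-/- cells. LPS took it to 1718, 1750 and 1714 FPKM in WT, against 1290, 1275 and 1190 FPKM in Pim1-/- libraries. The genotypes overlapped without treatment and were apart after LPS. The rise was 1115-fold in WT and 853-fold in Pim1-/- cells. After LPS the Pim1-/- mean was 72.5% of WT, a log2 difference of −0.47 with a standard error of 0.0604 (adjusted p = 4.17e-06, limma) that did not reach 2-fold. The untreated difference did not pass the test (−0.04, adjusted p = 0.516), and the difference in response was −0.42 (adjusted p = 0.000548).

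Tnfsf9, the TNF family ligand (chr17:57105325-57107757, + strand), went opposite ways before and after LPS. In untreated cells it was at 2.68, 2.92 and 3.00 FPKM in WT, against 8.44, 6.84 and 8.31 FPKM in Pim1-/- libraries. After LPS it was at 244.2, 241.4 and 240.5 FPKM in WT, against 114.8, 116.1 and 126.3 FPKM in Pim1-/- libraries. Every untreated Pim1-/- value was above WT and every LPS-treated one below. The Pim1-/- mean was 274% of WT without treatment, a log2 difference of 1.19 with a standard error of 0.0639 (adjusted p = 1.76e-10, limma), and 49.2% of WT after LPS, a log2 difference of −1.02 (adjusted p = 9.61e-10). Without Pim1-/- replicate 1 the difference after LPS was −0.99, and under scaling to equal FPKM sums and quantile normalization it was −0.81 and −0.71, all below the fold threshold. LPS raised it 84.4-fold in WT and 15.1-fold in Pim1-/- cells, and the response differed by −2.21 with a standard error of 0.0903 (adjusted p = 2.85e-11). Its exons overlap Gm11110 on the opposite strand, which was at 2.79 FPKM in untreated WT and 4.714 FPKM in untreated Pim1-/- cells, and at 0.9086 and 2.143 FPKM after LPS. Its part in the Tnfsf9 values was not tested.

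Cd83 (chr13:43784775-43803132, + strand) was lower in Pim1-/- cells before LPS and slightly higher after it. The untreated values were 70.35, 74.2 and 70.67 FPKM in WT, against 38.78, 38.67 and 36.65 FPKM in Pim1-/- libraries. After LPS they were 685.5, 694.9 and 673.8 FPKM in WT, against 785.9, 806.7 and 707.2 FPKM in Pim1-/- libraries. The groups did not overlap at either time, and after LPS the lowest Pim1-/- library was close to the highest WT library. The untreated difference was −0.90 (adjusted p = 1.77e-10, limma), or 53% of WT, and that after LPS was 0.16 (adjusted p = 0.00676), or 112% of WT. LPS raised Cd83 9.54-fold in WT and 20.2-fold in Pim1-/- cells, and the response was larger in Pim1-/- cells by 1.06 with a standard error of 0.068 (adjusted p = 4.16e-09). The untreated decrease passed 2-fold under quantile normalization (−1.01) and scaling to 8 reference genes (−1.06).

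Icam1, which encodes the ligand of beta2 integrins (chr9:21015985-21028817, + strand), had the highest level of the 10 after LPS. It was at 30.31, 32.36 and 31.57 FPKM in untreated WT and at 12.72, 13.21 and 13.51 FPKM in untreated Pim1-/- libraries. LPS took it to 1828, 1818 and 1858 FPKM in WT, against 1324, 1303 and 1459 FPKM in Pim1-/- libraries. The genotypes were apart at both times, and the relative gap was wider without treatment (41.9% of WT) than after LPS (74.2% of WT). The untreated difference was −1.20 with a standard error of 0.0457 (adjusted p = 2.84e-12, limma), and after LPS it was −0.43 (adjusted p = 4.39e-07). The rise was 58.4-fold in WT and 104-fold in Pim1-/- cells, a difference of 0.76 on the log2 scale (adjusted p = 8.38e-08). Its promoter is printed above. An annotated gene on the opposite strand overlaps its exons.

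Slamf1 encodes a self-binding receptor of the SLAM family (chr1:171767127-171801184, + strand) and differed most between genotypes. It was at 0.0106, 0.00992 and 0.0273 FPKM in untreated WT libraries, an estimated 2 to 5 fragments each, and was listed at 0 in all 3 untreated Pim1-/- libraries. After LPS it was at 12.97, 14.03 and 13.5 FPKM in WT, against 1.15, 1.03 and 1.01 FPKM in Pim1-/- libraries. The LPS-treated genotypes were far apart, with a WT mean 12.7 times the Pim1-/- mean. In limma the difference after LPS was −2.81 on log2(FPKM + 1), with a standard error of 0.0512 and an adjusted p of 1.96e-15, and it ranked 16 from the lowest among 10581 genes. Since the scale adds 1 FPKM to each value, it understates this change. An estimated 1191 to 1326 fragments per library lay behind the WT values after LPS and 110 to 155 behind the Pim1-/- values. The response to LPS was 3.83 in WT and 1.04 in Pim1-/- cells on that scale, and differed by −2.79 with a standard error of 0.0725 (adjusted p = 4.62e-13). No fold change with LPS is given because the untreated values were at or near 0.

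The test of the difference in LPS response separated the genes into a set that rose less and a set that rose more in Pim1-/- cells. It called Slamf1 and Tnfsf9 lower (2 of 9, where 4.43% of all tested genes were) and Cd83 higher (1 of 9, where 2.24% were). At an FDR under 0.1 with limma, 6 of 9 had a smaller response in Pim1-/- cells (Cd40, Cd80, Cd86, Icosl, Tnfsf9 and Slamf1) and 3 a larger one (Cd83, Cd274 and Icam1), against 35.8% and 32.7% of all genes, and Cd86 and Icosl changed sign under quantile normalization. The median over the 9 was −0.26, against 0 for all genes, and was −0.08 under scaling to equal FPKM sums and 0.08 under quantile normalization. The 3 genes with a larger response all had a lower untreated level in Pim1-/- cells, by 0.69 to 1.20 on the log2 scale. But so did Icosl (−0.74), Cd80 (−0.59) and Cd86 (−0.32), which had a smaller response as deposited. Untreated means of these were 54.8%, 58.8% and 76.5% of WT, against 58.8% for Cd274. This comparison uses the same untreated libraries as the comparison between genotypes, so the values are only set side by side.

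Genes that work with these proteins were listed by pathway, 96 genes in 8 lists, of which 77 were tested. Between genotypes 12 were called lower and 2 higher without treatment, and 15 lower and 2 higher after LPS. Among all tested genes 3.37% and 4.4% were called lower and higher without treatment, and 5.15% and 3.51% after LPS. Of the 77, 4 passed the filter only through LPS-treated WT cells, and 2 of these (Tnfrsf9 and Lag3) are among the 15. LPS raised 45 and lowered 10 in WT cells and raised 39 and lowered 7 in Pim1-/- cells. Among all tested genes it raised 20.1% in WT and 14.6% in Pim1-/- cells. The share of all genes that it lowered is not given here, so the counts of 10 and 7 cannot be read as high or low. At an FDR under 0.1 alone, 43.4% of all genes were lower and 37.6% higher in Pim1-/- cells after LPS, which is the background of such counts in the lists.

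In the B7 and CD28 family, 5 of 12 listed genes were tested, and after LPS none was called while all 5 were lower in Pim1-/- cells at an FDR under 0.1. The median was −0.53, and −0.19 under scaling to equal FPKM sums. Without treatment 2 were called lower. Among the receptors of the family, Ctla4, Icos and Pdcd1 were under 1 FPKM as means in all 4 groups. Cd28 was detected, at means of 71.66 FPKM in WT and 38.92 in Pim1-/- cells without treatment, and 5.635 and 4.851 FPKM after LPS. Btla passed the filter only through LPS-treated WT cells (1.619 FPKM there, 0.8173 in Pim1-/- cells), so its lower value was part of how it entered the test.

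In the TNF family list, 6 of 12 were tested, and after LPS 2 were called higher and 1, Tnfrsf9, lower. Tnfrsf9, the receptor of the Tnfsf9 product, was under 0.1 FPKM as a mean in untreated cells of both genotypes. After LPS its mean was 4.364 ± 0.32 FPKM in WT against 0.6875 ± 0.144 FPKM (SD, n = 3 each) in Pim1-/- cells. It passed the filter only through the LPS-treated WT libraries, so its call is set aside and these values are given without a test. Other ligands of the family were higher in Pim1-/- cells after LPS. Tnfsf8 (CD30 ligand) was at 6.617 ± 0.6 FPKM in WT, against 20.65 ± 2.14 FPKM in Pim1-/- cells (1.51, adjusted p = 3.28e-10), and Tnfsf14 (LIGHT) was at 0.3591 ± 0.0474 and 2.045 ± 0.168 FPKM (1.16, adjusted p = 1.18e-09).

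Of 12 genes of CD40 signalling, all were tested, and after LPS 1 was called lower and 10 were lower at an FDR under 0.1, with a median of −0.52. The called gene was Nfkb2, which encodes the precursor of the NF-κB subunit of the noncanonical pathway. It was at 383.4 ± 9.85 FPKM in WT against 183 ± 12.8 FPKM (SD, n = 3 each) in Pim1-/- cells. This was a log2 difference of −1.06 (adjusted p = 5.77e-11, limma). Under scaling to equal FPKM sums and quantile normalization none of the list was called in this comparison.

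Of 13 adhesion genes that act with ICAM-1, 12 were tested and 2 were called lower after LPS, with a list median of −0.42. Itgal, the alpha chain of the integrin LFA-1 that binds ICAM-1, was at 92.16 ± 1.05 FPKM in WT against 38.67 ± 3.61 FPKM (SD, n = 3 each) in Pim1-/- cells after LPS (−1.24, adjusted p = 5.14e-11, limma), whereas the untreated means were 6.978 and 6.777 FPKM. Vcam1, an adhesion molecule for another integrin, was at 68.19 ± 1.7 and 28.2 ± 1.76 FPKM after LPS (−1.25, adjusted p = 8.25e-12). The response of both to LPS was called smaller in Pim1-/- cells, by 1.20 for Itgal and 1.24 for Vcam1 on the log2 scale. Under quantile normalization no gene of the list was called in either comparison.

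In the SLAM family list, 9 of 12 were tested. After LPS 1 was called lower and none higher, and the median was 0.11, which was 0 under scaling to the reference genes. Under scaling to equal FPKM sums and under quantile normalization none was called lower and 1 was called higher, with medians of 0.32 and 0.35. The gene called lower as deposited was Fyn, a kinase that SLAM receptors recruit through their adaptor. It was at 37.04 ± 0.459 FPKM in WT against 17.13 ± 1.6 FPKM (SD, n = 3 each) in Pim1-/- cells (−1.07, adjusted p = 9.02e-11, limma). Sh2d1a, the gene of the adaptor that brings Fyn, had a mean of 0 FPKM in all 4 groups. At an FDR under 0.1, 3 of the 9 were lower and 6 higher. None of the other receptors of the family was called lower beside Slamf1 after LPS.

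Of 13 other inhibitory ligands and receptors, 11 were tested and 3 were called lower after LPS. None was called higher as deposited, and at an FDR under 0.1, 7 of the 11 were lower and 4 higher in Pim1-/- cells. Under scaling to equal FPKM sums 3 were called lower and 1 higher. The median was −0.23 as deposited and 0.02 under quantile normalization. Lag3, which encodes an inhibitory receptor for MHC class II, was at 3.565 ± 0.16 FPKM in WT against 0.6014 ± 0.205 FPKM (SD, n = 3 each) in Pim1-/- cells after LPS. It too passed the filter only through the former group, so its call, 1 of the 3, is set aside as well. Pvrl2 (Nectin2), a ligand of the inhibitory receptor TIGIT, was at 73.68 ± 4.02 and 24.98 ± 1.89 FPKM (−1.52, adjusted p = 4.05e-12, limma).

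Of 7 genes that control the turnover of CD86 and PD-L1 at the cell surface, all were tested and 2 were called lower after LPS. March1 encodes the ubiquitin ligase that removes CD86 and MHC class II from the surface and that CD83 opposes. It was at 19.1 ± 0.447 FPKM in WT against 1.499 ± 0.223 FPKM (SD, n = 3 each) in Pim1-/- cells after LPS. This was a log2 difference of −3.01 (adjusted p = 6.28e-15, limma), and at 12.45 and 4.904 FPKM without treatment. Cmtm6, which protects PD-L1 from degradation, was at 242 ± 3.71 and 108.9 ± 4.5 FPKM after LPS (−1.15, adjusted p = 1.46e-12). Under scaling to equal FPKM sums and under quantile normalization 1 of the 7 was called lower, with medians of −0.26 and −0.17 in place of −0.47.

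All 15 transcription factors listed for these genes were tested. In each state 5 were called lower and none higher in Pim1-/- cells, with medians of −0.59 without treatment and −0.73 after LPS. Irf8, a factor of macrophage and dendritic cell development, was at 225.7 ± 6.3 FPKM in WT against 58.43 ± 3.46 FPKM (SD, n = 3 each) in Pim1-/- cells after LPS (−1.93, adjusted p = 2.52e-14, limma). Stat3, which carries cytokine signals, was at 129 ± 0.456 and 40.74 ± 3.57 FPKM (−1.64, adjusted p = 2.4e-12). Under scaling to equal FPKM sums and quantile normalization 3 of the 15 were called lower after LPS.

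**Figure D4:**
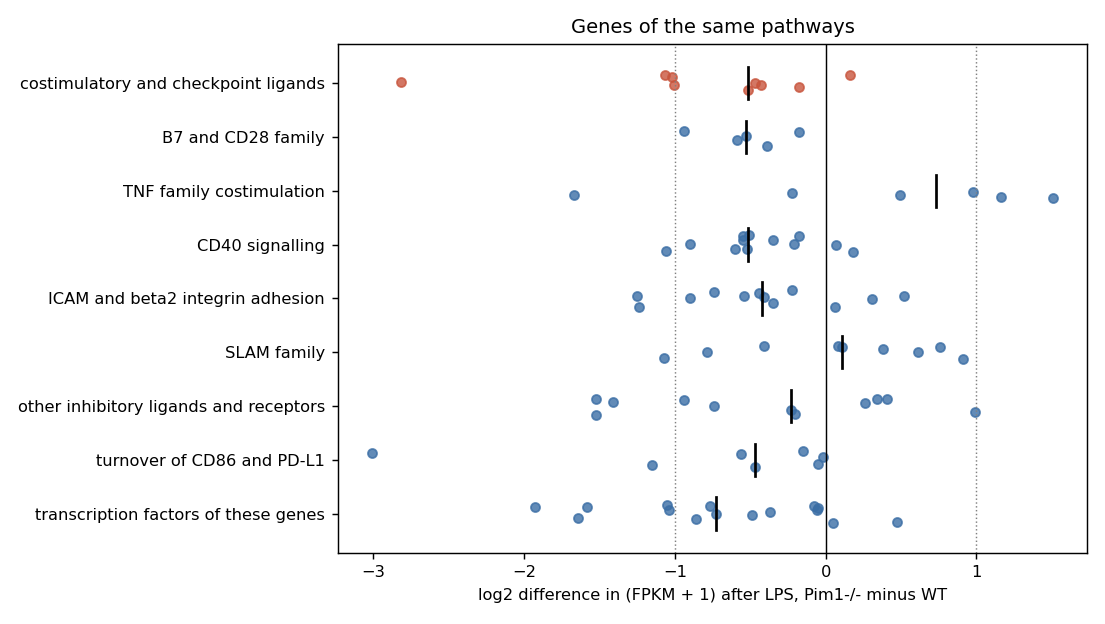
Difference between Pim1-/- and WT cells after LPS on log2(FPKM + 1), with a point for each tested gene of the 8 pathway lists (blue) and of the costimulatory and checkpoint ligands (red), a black line at each list's median and dotted lines at a 2-fold difference. Points lie on both sides of 0 in most lists, while all of the B7 and CD28 family and of the turnover list lie below it as deposited. The TNF family median lies at 0.73 and that of the transcription factors at −0.73, and the median of the other inhibitory ligands and receptors (−0.23) is 0.02 under quantile normalization.

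The patterns of Slamf1, Cd80 and Tnfsf9, which had the largest differences after LPS, were compared with those of all tested genes over the 12 libraries. Most like Slamf1 were Marco and Mmp25, each with Pearson's r of 0.9991. Marco, a scavenger receptor, had means of 12.75 FPKM in WT, against 1.03 FPKM in Pim1-/- cells after LPS, close to the 13.5 and 1.063 FPKM of Slamf1. Cd80 was most like Slc39a1 (0.9973) and Rab8b (0.9972), and Tnfsf9 was most like Mb21d1 (0.9996) and Ccnd2 (0.9992). The libraries fall into 4 groups that set these values, so they describe the shape across groups only.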

How the data were processed

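RNA of 12 BMDM libraries (TruSeq stranded mRNA kit) was measured, with groups taken from the GEO labels. Per the submitters' processing notes the authors used bcl2fastq 2.20.0.422, cutadapt 1.18, TopHat2 2.0.13 and Cuffdiff 2.2.1 with mm10, while the methods name rat rn5. Neither the gene annotation nor how Cuffdiff scaled the libraries is given in the sources used here. The columns the authors deposited carry no unit and were taken to be FPKM, since Cuffdiff writes FPKM and the values have its form. FPKM sums per library were 467484 to 489710 in untreated WT, 452511 to 472138 in untreated Pim1-/-, 837585 to 849323 in LPS-treated WT and 713307 to 743912 in LPS-treated Pim1-/- cells.

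The depth was estimated from low values (at most 0.1 FPKM, genes with 1 transcript), of which 63.3% to 72.2% per library lay within 0.05 of a whole number of fragments. A gene at 1 FPKM then had 37.9 to 45.9 fragments per kilobase in untreated, 20.9 to 23.3 in LPS-treated WT and 25.3 to 32.1 in LPS-treated Pim1-/- libraries, so low values after LPS rest on fewer fragments. No 2 replicates held identical values.

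Values were used as deposited, with a pseudocount of 1 on the log2 scale, for genes that reached 1 FPKM in 3 or more libraries. limma 3.58.1 (R 4.3.3) with a mean-variance trend fitted 4 group means. Calls needed a change above 2-fold with p under 0.05 and FDR (Benjamini-Hochberg) under 0.1, as in the study's methods but in both directions. Correlations of deviations of same-numbered libraries were 0.33 to 0.46 between untreated genotypes and 0.43 to 0.68 between treatments in Pim1-/- cells. For the other 2 comparisons they were −0.10 to 0.37. Libraries with different numbers were not compared, so these values cannot tell whether the numbers pair the libraries. The replicate block was an alternative, as were other pseudocounts, filters, scalings, thresholds and libraries left out. Scaling to 8 reference genes was chosen after seeing the data.

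The 10 genes and the pathway and marker lists were chosen with earlier results of these data known. Named beside the 10 were Pim1, up to 2 called genes with the largest decrease and 2 with the largest increase after LPS per list, the 2 genes most like each of the 3 with the largest difference after LPS, and markers where a list's levels are given. Ctla4, Icos, Pdcd1, Cd28, Btla, Sh2d1a and Gm11110 were named outside this rule. Positions are from GENCODE M21 (GRCm38), promoters from RefSeq GRCm38.p6. Figures were drawn with Python 3.11.15 and matplotlib 3.10.9. Of the marker lists, Trac and Ly6g were not found by symbol.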

Additional observations from a re-analysis of the deposited data

Results flagged for a closer look

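The response to LPS of 3 genes differed between genotypes by the test of the difference itself (limma, more than 2-fold with an FDR under 0.1). Slamf1 responded less in Pim1-/- cells, by −2.79 on log2(FPKM + 1), and Tnfsf9 responded less, by −2.21. Cd83 responded more, by 1.06. Each was called under every alternative run for it, including each of the 12 libraries left out. For Tnfsf9 and Cd83 the untreated levels also differed between genotypes, in opposite directions.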

How the results depend on the processing

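Of 809 values of single genes recomputed under the alternatives, 775 counted as unchanged, 18 were called in addition, 12 were no longer called and 4 reversed. A change of sign counted as a reversal only for a gene called in either run or with an FDR under 0.1 as deposited. Otherwise it counted as unchanged. Most of the 18 came from the alternative that asked for an FDR under 0.05 without a fold threshold. Other filters, the replicate block and limma without a trend left the log2 differences as they were, so the direction of those values was fixed in advance. Of the reversals, 2 were the genotype difference of Cd274 after LPS (0.03 with equal FPKM sums, 0.13 with quantile normalization). The others were the difference in LPS response between genotypes of Cd86 (0.08) and Icosl (0.12), both with quantile normalization. Of the 9 tested genes, 7 were called in untreated cells, 9 after LPS and 8 for the difference in response when only an FDR under 0.05 was asked for, against 2, 4 and 3 with the fold threshold. The share of all genes at that FDR is not given here. At an FDR under 0.1, 44.2% of all genes were lower and 34.6% higher in untreated cells. After LPS these shares were 43.4% and 37.6%, and for the difference 35.8% and 32.7%, so passing an FDR alone was common. After LPS 1 was called with equal FPKM sums and 1 with quantile normalization. With 1 library left out, 2 to 4 were called after LPS, the fewest without Pim1-/- replicate 1, and 3 without WT replicate 3 or Pim1-/- replicate 2.

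The median untreated genotype difference was −0.45 without a filter, −0.74 with a pseudocount of 0.1 and −0.71 with the reference genes. After LPS it was −0.31 with equal sums, −0.41 with quantile normalization and −0.63 with the reference genes. The median LPS change in WT was 5.2 with a pseudocount of 0.1, 3.39 with equal sums and 3.71 with quantile normalization. In Pim1-/- cells it was 3.91, 3.14 and 3.51, and 3.68 to 3.81 with a library left out. The median difference in response was −0.16, −0.08 and 0.08. Equal sums moved the median genotype difference of all genes after LPS to 0.12, and the reference genes moved that of untreated cells to −0.19.

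With the replicate number as a block, 2 of the genes were called in untreated cells, 4 after LPS and 3 for the difference in response, and the block changed no call. Slamf1 in untreated cells could not be tested with only those groups in the fit, and Pdcd1lg2 was left out everywhere. Levels under about 0.1 FPKM rest on few fragments, so no fold is given for Pdcd1lg2 or against untreated Slamf1.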
